A study of Homo sapiens with 9 samples.

Results

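The 2 knock-in lines of this series were pooled and set against their parental line, to describe the RNA changes that both had in common. The 6 knock-in libraries, 3 with the helical-domain change E545K and 3 with the kinase-domain change H1047R in PIK3CA, were chosen by their genotype labels out of 9 libraries in all, and no measured value entered that choice. The remaining 3 libraries came from the parental line and are called WT. All cells were MCF-10A, human breast epithelial cells that do not form tumors, and each knock-in is a single line made in earlier work. Epidermal growth factor (EGF) was at 20 ng/ml in the maintenance medium of WT and at 0 ng/ml in that of both knock-ins, each with 5% horse serum. The last 24 h were spent by every line in 0.2 ng/ml EGF and 1% charcoal-stripped serum, and insulin, hydrocortisone and cholera toxin were present throughout in all 3 lines. EGF history therefore moved with the knock-in in every comparison here, and the part of each cannot be told apart. Both lines were also measured against the same 3 WT libraries, so a shift of WT alone would appear in both.

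PIK3CA encodes p110-alpha, the catalytic subunit of a lipid kinase that receptor tyrosine kinases and insulin receptors switch on at the membrane. Its product, the lipid PIP3, recruits the kinase AKT, which raises mTOR activity and holds the FOXO transcription factors out of the nucleus. EGF binding to its receptor feeds the same lipid kinase and, in parallel, the RAS-ERK cascade, which drives immediate-early genes and their own feedback inhibitors. MCF-10A cells ordinarily depend on added EGF to grow, and knock-in of either hotspot change is known for letting them grow without it.

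The 6 WT and E545K libraries held between 95091894 and 136132315 counts each, and the H1047R libraries between 377093507 and 605972919. Levels are counts scaled to library size (CPM), and a count of 0 allowed at most 0.0315 CPM in a WT library, for counting error only. A level with ± is a mean with its SD over the libraries of a line (n = 3), and a log2 fold change with ± has its standard error. Protein-coding genes took 77.6% to 78.1% of counts in H1047R and 85.2% to 86.0% in the other 6 libraries, and the H1047R libraries came in a table of their own. The coefficient of variation between libraries was 0.0293 in WT, 0.0276 in E545K and 0.0990 in H1047R, against 0.0665 in the common model, which is therefore strict for E545K and lenient for H1047R. All 8 basal epithelial markers (KRT5, KRT14, KRT17, TP63, ITGB4, ITGA6, LAMB3 and COL17A1) were at 1 CPM or more in each library. Their summed level was 30740 to 31170 CPM in WT, 28020 to 28230 in E545K and 28890 to 29840 in H1047R. Most of that sum was KRT5 and KRT17, and single markers differed more between lines. ITGB4 stood at 2619 to 2662 CPM in WT, 2437 to 2465 in E545K and 1523 to 1695 in H1047R. COL17A1 stood at 795.9 to 821.2 CPM in WT, 908.2 to 928.4 in E545K and 1176 to 1371 in H1047R. The immune markers PTPRC, CD3E and MS4A1 and the fibroblast markers COL1A2, COL3A1, LUM and PDGFRA lay below 0.23 CPM in every library. Some other markers on the same lists were well above that. Among immune markers, CSF1R lay between 33.17 and 81.41 CPM, CD68 between 4.43 and 10.97 and CD14 between 2.165 and 5.536. Among fibroblast markers, COL1A1 lay between 46.11 and 71.45 CPM, DCN between 7.494 and 48.52, and COL6A3 between 5.984 and 6.288 in WT. In bulk RNA, fewer cells of a kind and less RNA per cell cannot be told apart. WT replicate 1 held more progesterone receptor RNA (PGR, 0.918 CPM) than the other WT libraries (0.104 and 0.105).

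Joining the 2 lines with equal weight, 11084 of 16830 genes were called against WT at an adjusted p under 0.05, which was 65.9% of those tested. Of these, 5542 were higher and 5542 lower (32.9% each). Many of the calls came from 1 line. Both lines were called in the pooled direction for 5870 of these genes, H1047R alone for 3307, E545K alone for 1197, and for 669 the lines were called in opposite directions. By itself E545K was called higher for 28.1% and lower for 28.4% of all genes tested (56.5% in all), and H1047R for 36.4% and 36.0% (72.4% in all). Fitting the 6 knock-in libraries as a single group, so that the difference between lines counted as spread, left 2541 higher and 2546 lower. The bar chart of pooled calls by line gives these classes.

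**Figure D1:**
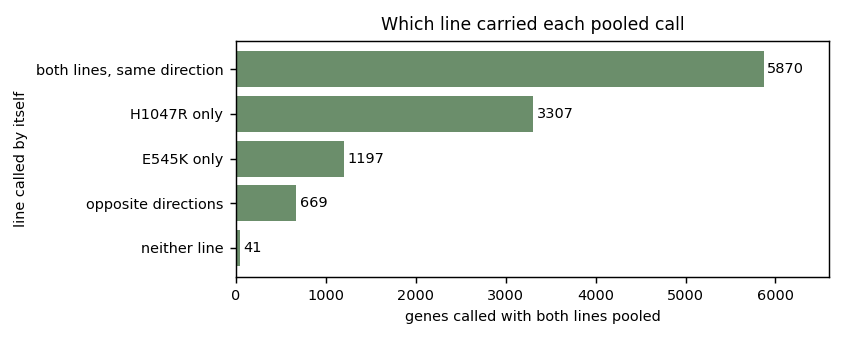
Genes called with both lines pooled against WT (x axis, number of genes, edgeR adjusted p under 0.05), split by which line was called by itself (y axis). Both lines moved the same way in 5870, and 3307 were called in H1047R only.

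A gene was therefore counted as shared when it had a pooled call and all 6 knock-in libraries lay beyond all 3 WT libraries on the same side. By that rule 3268 genes were shared rises (19.4% of genes tested) and 3508 shared falls (20.8%), together 40.3%, while the libraries did not overlap for 40.7% of genes with or without a call. Most shared changes were small. The median shared rise was 0.34 on the log2 scale in E545K and 0.52 in H1047R, and the median shared fall −0.31 and −0.48. At least 2-fold in each line, 395 genes rose (2.35%) and 191 fell (1.13%), and at least 8-fold 45 rose and 17 fell. When the lines were compared with each other by edgeR, H1047R was further from WT in 3644 shared genes and E545K in 949 (70.8% of all genes were called in that comparison). The difference between lines was not called for the rest. With the 6 libraries as a single group, 5002 of the 6776 shared genes still passed. Whether replicates were separate cultures is not given in the labels, so each p measures the spread between these libraries only. A gene that reached 1 CPM in 3 libraries only through 1 line had to differ. That held for 138 shared falls through WT and for 59 and 160 shared rises through E545K and H1047R, and shared genes of this kind are marked where they are named. None of the p-values measures the spread between independently made knock-in lines, of which there was 1 for each change.

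PIK3CA itself (ENSG00000121879.5, chr3:179148114-179240093, plus strand, hg38), which shares 35.2% of its exon bases with other genes, was not a shared gene. Its level was 43.5, 46.0 and 47.5 CPM in the WT libraries, 39.2, 37.7 and 37.3 in E545K, and 42.0, 44.4 and 43.9 in H1047R. The E545K libraries lay below all WT libraries, while the H1047R libraries overlapped them. Its pooled change was −0.17 ± 0.04 (edgeR adjusted p = 8.19e-04), which was no longer called with the 6 libraries as a single group (−0.16, edgeR adjusted p = 0.103). With each line fitted with WT alone there was no pooled test. The larger edgeR adjusted p of the separate fits was 0.168 (mean change −0.17). The test of H1047R against E545K gave 0.19 ± 0.04 (edgeR adjusted p = 7.66e-04).

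The shared genes with the largest changes in both lines held junction, adhesion and transport genes among the rises. Ranked by the smaller of the changes in either line, among genes at 10 CPM or more, the largest shared rise was that of claudin 1 (CLDN1, ENSG00000163347.6, chr3:190305707-190322446, minus strand, hg38), a strand protein of tight junctions. It stood at 1.06, 1.0 and 0.862 CPM in the WT libraries, 30.1, 30.3 and 30.4 in E545K, and 91.0, 109.8 and 96.4 in H1047R. Every knock-in library was far above every WT library, with the H1047R libraries the highest, and the pooled log2 fold change was 5.80 ± 0.09 (edgeR adjusted p = 5.29e-14). POF1B, an epithelial protein that binds actin, went from 0.721 CPM in WT to 13.5 in E545K and 16.3 in H1047R (pooled 4.34 ± 0.10). Its log2 fold change was 4.21 in E545K and 4.48 in H1047R. Of the other 10 largest, 4 were protocadherin-alpha genes on chromosome 5 (PCDHA10, PCDHA11, PCDHAC1 and PCDHAC2), adhesion genes that share 36.7% to 46.9% of their exon bases and cannot be told apart one by one. Their WT libraries held between 0.673 and 1.33 CPM and their knock-in libraries between 9.90 and 19.3.

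The remaining 6 of the 12 largest rises were genes of unlike function. The enzyme HSD11B2, which inactivates cortisol, rose from 4.15 ± 0.335 CPM in WT to 28.3 ± 0.991 in E545K and 47.2 ± 4.71 in H1047R. The organic anion exporter ABCC2 rose from 10.1 ± 1.09 CPM in WT to 55.0 ± 1.96 in E545K and 139 ± 3.50 in H1047R. MACC1, a gene named for its association with colon cancer, rose from 2.92 CPM in WT to 13.2 in E545K and 30.0 in H1047R, the adhesion protein SVEP1 from 2.90 CPM in WT to 24.5 in E545K and 28.6 in H1047R and the sarcomeric protein MYPN from 4.99 CPM in WT to 18.1 in E545K and 26.9 in H1047R. The glycoprotein GPNMB stood at 9.86, 8.78 and 9.37 CPM in the WT libraries, 39.2, 39.8 and 40.5 in E545K, and 237, 274 and 304 in H1047R. Its level in H1047R was several times that in E545K, and the test of the difference between lines gave 2.77 ± 0.08 (edgeR adjusted p = 5.80e-10), whereas SVEP1 differed by 0.22 ± 0.06.

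The largest shared falls held mesenchymal, contractile and adhesion genes. Vimentin (VIM, ENSG00000026025.16, chr10:17228241-17237593, plus strand, hg38), an intermediate filament of mesenchymal and migrating cells, stood at 104, 106 and 106 CPM in the WT libraries, 11.4, 11.2 and 12.1 in E545K, and 3.09, 2.71 and 2.94 in H1047R. The WT libraries lay highest, the E545K libraries between and the H1047R libraries lowest, with no overlap. The pooled log2 fold change was −4.19 ± 0.04 (edgeR adjusted p = 2.99e-17). Vimentin shares 24.3% of its exon bases with the antisense gene VIM-AS1, which fell with it (−4.28), and with unstranded counts reads of the pair cannot be told apart. Fibronectin (FN1, ENSG00000115414.19, chr2:215360440-215436073, minus strand, hg38), a matrix glycoprotein, went from 593 ± 13.9 CPM in WT to 106 ± 2.54 in E545K and 20.7 ± 3.41 in H1047R (pooled −3.67 ± 0.09, edgeR adjusted p = 1.46e-09). The kinase scaffold AKAP12 was ordered in the same way, at 86.6 ± 2.18 CPM in WT, 9.92 ± 0.143 in E545K and 1.71 ± 0.0367 in H1047R (pooled −4.40 ± 0.03).

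Among the other 12 largest falls, MYL9, a myosin light chain, and KRT8, a simple-epithelial keratin, fell, and no further in H1047R than in E545K. MYL9 changed by −2.65 in E545K and −2.21 in H1047R and KRT8, at 988 ± 32.6 CPM in WT, 239 ± 2.27 in E545K and 262 ± 24.3 in H1047R, by −2.05 in E545K and −1.91 in H1047R. The adhesion receptor MCAM, the imprinted RNA H19, the matrix protein OLFML2A and the elongation factor EEF1A2 fell further in H1047R. MCAM changed by −2.03 in E545K and −4.35 in H1047R and H19 by −2.03 in E545K and −5.80 in H1047R. The homeobox factor ONECUT3 stood at 9.54, 11.2 and 9.89 CPM in the WT libraries, 0.0211, 0.0555 and 0.119 in E545K, and 0.0569, 0.0841 and 0.0768 in H1047R. Every knock-in library lay far below WT. The metallothionein copy MT1L, whose reads its relatives can share, stood at 16 CPM in WT, 0.244 in E545K and 0.0253 in H1047R. ONECUT3 and MT1L reached the level filter only through WT and so had to differ. The plot of the 24 largest shared changes shows each library.

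**Figure D2:**
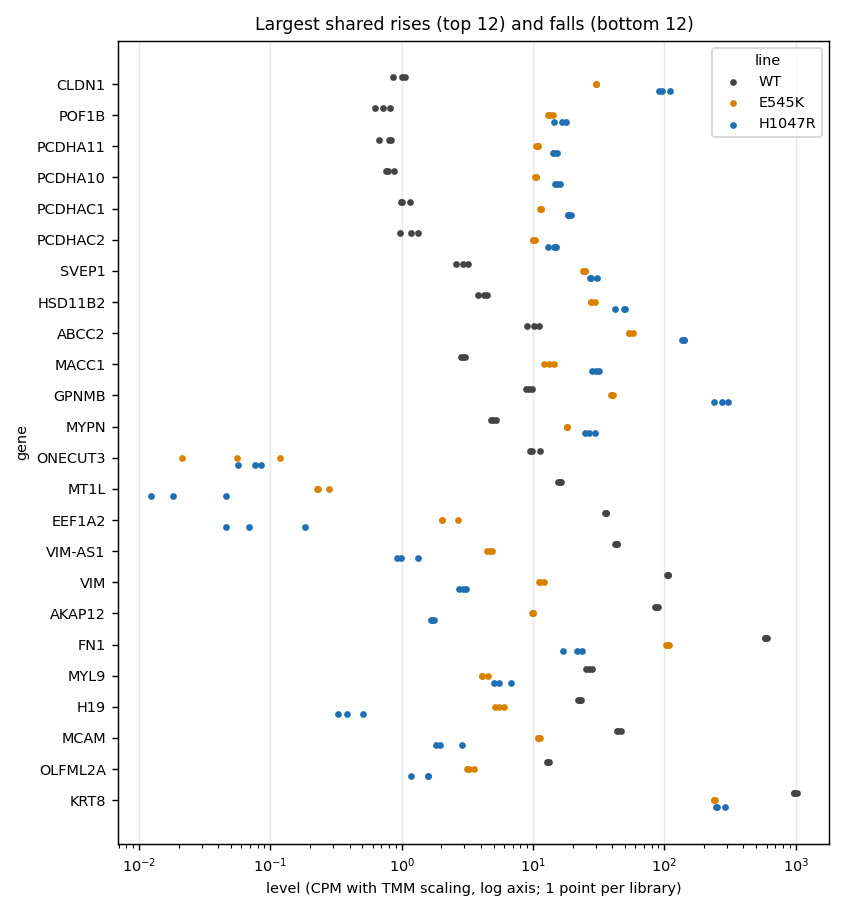
Level of the 12 largest shared rises (top) and 12 largest shared falls (bottom) in each library (x axis, CPM with TMM scaling, log axis, 1 point per library, coloured by line). No knock-in point overlaps a WT point, and for most genes the H1047R points lie further from WT than the E545K points.

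Promoter letters of 3 of these genes are shown because their windows held the AP-1 or CRE letters, the longer matches found. Of the 24, SVEP1, HSD11B2, ONECUT3, MT1L, EEF1A2 and MYL9 had no window and were not searched. The MYPN window held only the shorter TEAD letters and is not printed. RefSeq windows (GRCh38.p14) of 250 bases before the start site were matched for 11232 of the genes tested. The AP-1 letters searched were TGANTCA. Those of FOXO were GTAAACA. The cyclic AMP element (CRE) was TGACGTCA, which is not itself a match to the first. The TEAD letters were GGAATG, and all were searched on both strands. The AP-1 letters stood in 8.43% of the windows of shared rises of at least 2-fold (21 of 249) and in 5.83% of those of shared falls (7 of 120), beside 4.19% of all windows. The FOXO letters stood in 2.01% and 1.67%, beside 2.06%, the CRE in 2.01% and 3.33%, beside 2.87%, and the TEAD letters in 12.9% and 10.8%, beside 9.62%. Capitals mark the match, which is a description of letters and not a bound site. The GPNMB window (chr7:23246525-23246774, plus strand) holds TGAGTCA from base −134, the FN1 window (chr2:215436069-215436318, minus strand) holds the CRE from −183 and the MCAM window (chr11:119317131-119317380, minus strand) from −32, each counted back from the RefSeq start. The GPNMB and MCAM windows lie inside the longer gene models of the deposited annotation.
GPNMB: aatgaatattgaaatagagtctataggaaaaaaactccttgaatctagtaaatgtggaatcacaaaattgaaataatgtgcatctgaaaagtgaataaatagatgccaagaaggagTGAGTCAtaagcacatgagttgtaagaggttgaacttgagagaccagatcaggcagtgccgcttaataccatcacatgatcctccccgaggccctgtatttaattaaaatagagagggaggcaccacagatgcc
FN1: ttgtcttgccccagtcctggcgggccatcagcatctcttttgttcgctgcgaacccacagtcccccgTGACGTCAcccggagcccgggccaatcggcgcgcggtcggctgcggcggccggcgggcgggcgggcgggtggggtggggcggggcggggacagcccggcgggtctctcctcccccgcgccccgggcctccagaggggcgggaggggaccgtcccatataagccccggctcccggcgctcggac
MCAM: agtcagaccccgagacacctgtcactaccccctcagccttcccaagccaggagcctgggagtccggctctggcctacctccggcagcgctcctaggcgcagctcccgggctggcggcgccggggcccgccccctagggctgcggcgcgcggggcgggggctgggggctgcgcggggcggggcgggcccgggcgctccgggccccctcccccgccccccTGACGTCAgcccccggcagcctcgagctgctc

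Genes of the PI 3-kinase pathway moved in both directions. Of 11 subunit and adaptor genes, 8 were called higher and 2 lower, with 6 shared rises and 1 shared fall and a median pooled change of 0.14, beside 0.01 over all genes. The regulatory subunits PIK3R1 and PIK3R3, which hold and stabilise the catalytic subunit, rose. PIK3R3 stood at 34.5, 34.9 and 34.7 CPM in the WT libraries, 73.9, 72.6 and 73.1 in E545K, and 103, 101 and 97.0 in H1047R. All 6 knock-in libraries held more than each WT library, and H1047R held the most (pooled 1.30 ± 0.03, edgeR adjusted p = 1.96e-13). PIK3R1 rose by 0.39 in E545K and 0.99 in H1047R. The leukocyte-enriched catalytic subunit PIK3CD was the shared fall, from 43.5 CPM in WT to 24.2 in E545K and 32.1 in H1047R. With the 6 libraries as a single group, 3 of the 6 rises passed.

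Of 13 lipid and AKT phosphatase genes, which oppose the pathway, 6 were called higher and 4 lower (32.9% each of all genes). The list held 4 shared rises (30.8%, beside 19.4% of all genes) and 2 shared falls (15.4%, beside 20.8%), or 4 and 1 as a single group. INPP5D (SHIP1), which takes the 5-phosphate from PIP3, went from 67.6 ± 1.0 CPM in WT to 176 ± 3.83 in E545K and 205 ± 2.98 in H1047R (pooled 1.49 ± 0.03, edgeR adjusted p = 4.92e-14). INPP4B, which removes the next phosphate in that route, went from 16.1 ± 0.174 CPM in WT to 33.3 ± 0.416 in E545K and 36.5 ± 1.64 in H1047R (pooled 1.12 ± 0.04). Both rose more than 2-fold in either line. INPPL1 (SHIP2), the relative of INPP5D, fell from 211 CPM in WT to 134 in E545K and 142 in H1047R.

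The kinase genes AKT1 and AKT2 were shared falls. AKT1 changed by −0.29 in E545K and −0.45 in H1047R, and AKT2 by −0.24 and −0.33. Of 23 AKT and mTOR genes, 7 were called higher and 10 lower (32.9% each of all genes). The list held 4 shared rises (17.4%, beside 19.4% of all genes) and 8 shared falls (34.8%, beside 20.8%), or 2 and 7 as a single group. The median of −0.01 changed sign with upper-quartile scaling (0.01). MTOR rose from 81.9 CPM in WT to 112 in E545K and 107 in H1047R, and its inhibitory partner DEPTOR rose by 0.38 in E545K and 1.44 in H1047R, a call lost as a single group (1.0, edgeR adjusted p = 0.0501). The mTOR partners RPTOR (−0.15), RICTOR (−0.19) and MLST8 (−0.41) fell.

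The insulin receptor substrate IRS1, an adaptor that brings PI 3-kinase to insulin receptors, stood at 2.66, 0.753 and 0.978 CPM in the WT libraries, 4.04, 4.46 and 3.68 in E545K, and 9.74, 8.48 and 9.82 in H1047R. WT replicate 1 lay nearer to the knock-in libraries than the other WT libraries did. The pooled change was 2.01 ± 0.36 (edgeR adjusted p = 0.00147), and 2.83 without that library. With each line fitted with WT alone, the larger edgeR adjusted p of the separate fits was 0.0654 (mean change 2.01). The second substrate IRS2 fell (−0.49 in E545K and −0.72 in H1047R), as did the IGF-binding protein IGFBP6, from 178 CPM in WT to 79.2 in E545K and 9.36 in H1047R. IGFBP6 was not called as a single group (−2.01, edgeR adjusted p = 0.0928).

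FOXO target genes, which AKT keeps low, were split between the lines. Of 27, 11 were shared rises and 2 shared falls (6 and 2 as a single group), with a median of 0.00 in E545K and 0.50 in H1047R. In E545K 9 were called higher and 11 lower, and in H1047R 19 and 6. SESN3, a sestrin that restrains mTORC1, was the largest shared rise, from 18.0 ± 0.293 CPM in WT to 60.9 ± 1.61 in E545K and 125 ± 7.64 in H1047R (pooled 2.28 ± 0.04, edgeR adjusted p = 5.20e-14). PDK4, a brake on pyruvate oxidation, rose by 0.79 in E545K and 1.60 in H1047R, and the cell cycle inhibitor CDKN1A, also a p53 target, by 0.60 in E545K and 0.80 in H1047R. CITED2 was a shared fall at −1.09 in E545K and −0.51 in H1047R. FOXO3, BNIP3 and KLF6 were among 9 of the 27 that moved in opposite directions.

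**Figure D3:**
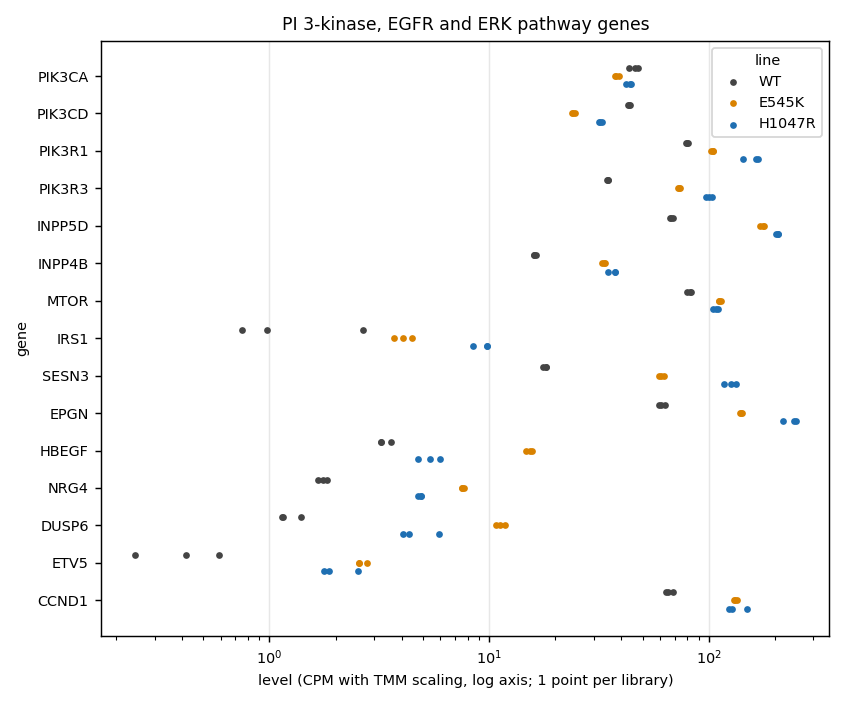
Level of 15 PI 3-kinase, EGFR and ERK pathway genes in each library (x axis, CPM with TMM scaling, log axis, 1 point per library, coloured by line). INPP5D, PIK3R3, SESN3 and EPGN are higher in both lines, PIK3CD lower, and HBEGF, NRG4 and DUSP6 are highest in E545K.

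Many EGFR ligands and ERK-response genes were higher in the knock-in libraries, and WT was the line that had been kept with EGF. Of 16 genes of the EGFR axis, 8 were shared rises and 1 a shared fall (6 and 1 as a single group), with a median of 0.24. The rises held 5 ligands. Heparin-binding EGF (HBEGF) stood at 3.22, 3.21 and 3.58 CPM in the WT libraries, 14.8, 15.3 and 15.7 in E545K, and 5.99, 4.75 and 5.4 in H1047R. All knock-in libraries were above WT, and the E545K libraries stood well above H1047R (difference −1.51 ± 0.08, edgeR adjusted p = 1.35e-09). Epigen (EPGN) was ordered the other way, at 61.0 ± 2.17 CPM in WT, 140.0 ± 1.42 in E545K and 237 ± 17.9 in H1047R. Neuregulin 4 (NRG4), a ligand of ERBB4, rose by 2.11 in E545K and 1.47 in H1047R, transforming growth factor alpha (TGFA) by 0.55 in E545K and 0.79 in H1047R and amphiregulin (AREG) by 3.49 in E545K and 0.67 in H1047R. The receptor brakes ERRFI1, LRIG1 and LRIG3 also rose, by 0.87, 0.20 and 0.57 in the pooled comparison, LRIG1 without a call in E545K alone.

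Of 39 ERK-response genes, 31 were called higher and 4 lower, and 22 were shared rises and 2 shared falls (20 and 2 as a single group), 8 of the rises at least 2-fold in each line. The median was 0.85, with 1.01 in E545K and 0.64 in H1047R. The rises held phosphatases and adaptors that switch the ERK cascade off. DUSP6, the cytoplasmic ERK phosphatase, stood at 1.4, 1.14 and 1.16 CPM in the WT libraries, 11.2, 11.8 and 10.8 in E545K, and 5.91, 4.04 and 4.32 in H1047R. The knock-in libraries were all several times above WT and the E545K libraries were highest (pooled 2.56 ± 0.14, edgeR adjusted p = 5.09e-09). DUSP6 shares 28.6% of its exon bases with other genes. The nuclear phosphatases DUSP2, DUSP4 and DUSP5 rose by 1.5, 1.69 and 1.5, and the RAF-ERK inhibitors SPRED1, SPRED2 and SPRED3 by 1.35, 0.44 and 0.83. Of the ERK-driven transcription factors, ETV5 changed by 2.70 in E545K and 2.35 in H1047R, FOSL1 by 2.71 in E545K and 0.84 in H1047R, EGR3 by 3.09 in E545K and 1.18 in H1047R and KLF4 by 1.75 in E545K and 0.86 in H1047R. The 2 shared falls were SRF, the factor that binds serum response elements, with −0.43 in E545K and −1.06 in H1047R, and its cofactor ELK3. MYC, FOS, FOSB and ETV4 moved in opposite directions in the 2 lines.

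Cyclin D1 (CCND1), which lets growth factor signals start the cell cycle, rose in both lines. Its level was 69.1, 63.7 and 65.0 CPM in the WT libraries, 132, 131 and 135 in E545K, and 149, 127 and 123.4 in H1047R, so the knock-in libraries held about the same and all more than WT. The log2 fold change was 1.01 in E545K and 1.01 in H1047R, and the difference between lines was 0.01 ± 0.06 (edgeR adjusted p = 0.935). Cyclin D2 (CCND2) was a shared fall of unequal size, from 163 ± 1.68 CPM in WT to 121 ± 0.786 in E545K and 1.71 ± 0.277 in H1047R. It was not called as a single group (−1.42, edgeR adjusted p = 0.465). The kinases that pair with D cyclins were shared falls, CDK6 with −0.26 in E545K and −0.83 in H1047R and CDK4 with −0.06 and −0.22, of which the E545K value was not called and 44.2% of the exon bases are shared with other genes. Of 23 G1 regulators, 4 were shared rises and 4 shared falls (4 and 1 as a single group). Each was 17.4% of the list, beside 19.4% and 20.8% of all genes.

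The proliferation genes were the clearest exception to sharing. Of 35 mitotic genes, 0 were shared rises and 2 shared falls, CDC25B (−0.45 in E545K and −1.12 in H1047R) and FOXM1 (−0.33 in E545K and −2.55 in H1047R), and 23 moved in opposite directions, all higher in E545K (4.84% of all genes tested did so). The median was 0.36 in E545K and −1.91 in H1047R, and in the pooled comparison 30 of the 35 were called lower. All 35 were lower in H1047R than in E545K by edgeR. As a single group 1 of the 2 shared falls passed and FOXM1 did not (−1.05, edgeR adjusted p = 0.219), and without WT replicate 3 there were 4. Of 29 DNA replication genes, 12 moved in opposite directions in the same sense. In that list 5 were shared rises (17.2%, beside 19.4% of all genes) and 2 shared falls (6.90%, beside 20.8%). PCNA (0.79 in E545K and 0.42 in H1047R) and the licensing inhibitor GMNN (0.60 in E545K and 0.67 in H1047R) were among the rises. CDT1, the factor that GMNN blocks, was a shared fall (−0.65 in E545K and −2.13 in H1047R). As a single group 4 rises and 0 of the 2 falls of this list passed (CDT1 −1.21, edgeR adjusted p = 0.0555).

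p53 target genes were the list with the largest share of shared rises among lists of at least 10 genes. Of 26, 23 were called higher and 1 lower, and 22 were shared rises (84.6%, beside 19.4% of all genes), with a median of 0.51 in E545K and 0.67 in H1047R. As a single group 19 of the 22 passed. Leaving out each library in turn, which makes the shared rule easier to meet, gave 21 to 23. MDM2, the ubiquitin ligase that p53 induces and that degrades it, stood at 147, 145 and 148 CPM in the WT libraries, 307, 293 and 305 in E545K, and 373, 374 and 371 in H1047R. The knock-in libraries were all well above WT, those of H1047R highest (pooled 1.19 ± 0.03, edgeR adjusted p = 1.90e-13). TIGAR, a fructose bisphosphatase, rose by 1.47 in E545K and 1.55 in H1047R and its difference between lines was 0.08 ± 0.04 (edgeR adjusted p = 0.147). The death-promoting PMAIP1 and BAX rose by 1.46 and 0.37, the DNA repair genes XPC and DDB2 by 0.65 and 0.11, and the death receptors FAS and TNFRSF10B by 0.65 and 0.35, although FAS shares 40.6% of its exon bases. TP53I3 was the 1 shared fall, by 0.11, and it lost its call in 6 of the 9 fits that left out a library. The p53 and FOXO lists have CDKN1A, SESN1 and SESN2 in common.

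**Figure D4:**
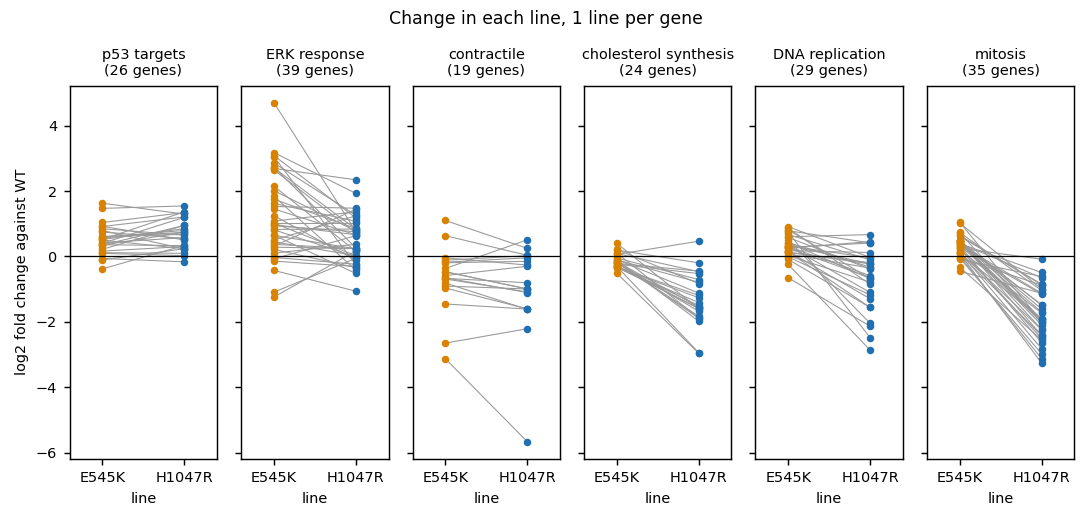
Log2 fold change against WT (y axis) of each gene in 6 lists, in E545K (left points) and H1047R (right points), with a line joining the values of 1 gene. Most p53 targets lie above 0 and most contractile genes below 0 in both lines, while mitotic genes lie mostly above 0 in E545K and below 0 in H1047R.

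Many contractile and mesenchymal genes fell in both lines. Of 19 contractile genes, 12 were shared falls and 1 a shared rise (12 and 0 as a single group), with a median of −0.58 in E545K and −0.99 in H1047R. TAGLN, an actin-binding protein of smooth muscle and myoepithelium, went from 52.1 ± 0.998 CPM in WT to 19.0 ± 0.827 in E545K and 17.1 ± 0.275 in H1047R (pooled −1.53 ± 0.03, edgeR adjusted p = 1.71e-13), and 47.8% of its exon bases are shared with other genes. Non-muscle myosin MYH9 changed by −0.90 and −0.99, filamin A (FLNA) by −0.96 and −1.60, vinculin (VCL) by −0.65 and −1.10 and caveolin 1 (CAV1) by −0.19 and −0.15. The smooth muscle actin ACTA2 was the shared rise, with 1.10 in E545K and 0.25 in H1047R, and was not called as a single group (0.73, edgeR adjusted p = 0.0696).

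Of 25 mesenchymal and stromal genes, 12 were shared falls and 3 shared rises (10 and 2 as a single group), and VIM and FN1 were the largest falls. INHBA, an activin subunit, fell from 3.75 CPM in WT to 0.637 in E545K and 0.211 in H1047R, decorin (DCN) from 46.5 ± 1.72 CPM in WT to 7.75 ± 0.596 in E545K and 13.3 ± 2.16 in H1047R and the receptor kinase AXL from 142 ± 4.26 CPM in WT to 52.3 ± 1.08 in E545K and 55.5 ± 0.469 in H1047R. AXL changed by −1.44 in E545K and −1.35 in H1047R, and its ligand GAS6 by −1.02 in E545K and −1.0 in H1047R. Tenascin C (TNC), a matrix glycoprotein, was a shared rise at 1.14 in E545K and 0.67 in H1047R. The summed level of the 8 fibroblast markers was 98.4 to 102.5 CPM in WT, 71.3 to 74.5 in E545K and 64.2 to 86.3 in H1047R. It came almost wholly from COL1A1, which rose (0.44), and from DCN and COL6A3, which fell. COL1A2, COL3A1, LUM and PDGFRA were near 0, as given above.

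The matrix and its receptors shifted in makeup. Of 20 integrin and laminin genes, 11 were shared falls and 4 shared rises (8 and 4 as a single group). The falls were 55.0% of the list, beside 20.8% of all genes, and the rises 20.0%, beside 19.4%. Falls took in the laminin-332 chain LAMA3 (−0.20 and −0.99) and the fibronectin receptor chains ITGA5 (−0.77 and −1.39) and ITGB1 (−0.79 and −0.51) in E545K and H1047R. LAMB3, another chain of that laminin, was lower in H1047R only. Scaled to library totals, it stood at 666.6 to 673.2 CPM in WT, 1148 to 1163 in E545K and 353.4 to 389.7 in H1047R. LAMA1 rose from 2.89 CPM in WT to 8.81 in E545K and 6.33 in H1047R and ITGB8, a chain of a TGF-beta-activating integrin, from 91.1 CPM in WT to 198 in E545K and 156 in H1047R. Of 18 collagens, 9 were shared rises (50.0%) and 3 shared falls (16.7%, beside 20.8% of all genes), or 7 and 3 as a single group. COL6A3 fell from 6.11 CPM in WT to 0.762 in E545K and 0.0868 in H1047R, and COL4A5 rose from 154 CPM in WT to 202 in E545K and 280.2 in H1047R. Of 23 matrix proteases and inhibitors, 13 were shared falls and 3 shared rises (9 and 3 as a single group), and the falls held both proteases and their inhibitors. MMP2 went from 2.61 CPM in WT to 0.442 in E545K and 0.327 in H1047R, ADAM19 from 26.2 CPM in WT to 9.13 in E545K and 1.77 in H1047R, and the inhibitor TIMP1 from 197 ± 3.79 CPM in WT to 103 ± 3.78 in E545K and 74.7 ± 10.2 in H1047R. MMP7 was a shared rise, with 0.86 in E545K and 3.04 in H1047R, but reached the level filter only through H1047R. MMP2 reached it only through WT, as did COL6A3 and INHBA, so these genes had to differ.

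Epidermal differentiation genes held shared rises that were mostly larger in H1047R, and some that moved in opposite directions. All 5 kallikreins tested, of 11 listed, were shared rises, of which KLK8 and KLK11 passed the level filter only through H1047R and so had to differ. As a single group 4 passed, and 3 were shared rises without any 1 of the H1047R libraries. KLK7, a protease of shedding skin, stood at 0.957, 0.858 and 0.652 CPM in the WT libraries, 8.64, 8.79 and 9.49 in E545K, and 239, 211 and 202 in H1047R, KLK5 at 0.204 CPM in WT, 4.75 in E545K and 21.9 in H1047R and KLK10 at 0.398 CPM in WT, 2.0 in E545K and 32.1 in H1047R. Of 30 cornification genes tested, 4 of which reached the level filter only through H1047R, 14 were shared rises and 2 shared falls (12 and 1 as a single group), and 9 rose at least 2-fold in each line. Another 5 were lower in E545K and higher in H1047R, and E545K by itself was called higher for 14 of the 30 and lower for 7. The median was 0.29 in E545K and 1.74 in H1047R. CASP14, the caspase of the cornified layer, stood at 0.427, 0.293 and 0.337 CPM in the WT libraries, 3.71, 4.16 and 4.29 in E545K, and 162, 187 and 196 in H1047R. E545K lay above WT and H1047R far above both. CALML3, a calmodulin of differentiated epithelium with 52.4% of its exon bases shared, was highest in E545K, with 4.16 in E545K and 2.33 in H1047R, and the protease inhibitor SPINK5 likewise with 2.92 in E545K and 2.09 in H1047R. The cystatin CST6 rose by 1.69 in E545K and 1.68 in H1047R. The antimicrobial subunits S100A8 and S100A9 rose by 1.91 in E545K and 7.29 in H1047R and by 1.78 in E545K and 5.45 in H1047R. S100A8 was under 1 CPM in all WT and E545K libraries and reached the level filter only through H1047R.

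Keratins went mostly the other way. Of 12 basal and luminal keratins, 7 were shared falls (4 as a single group), KRT17 (−0.51 and −0.25), KRT7 (−0.39 and −1.86) and KRT18 (−0.51 and −1.33) among them with KRT8. KRT23 was the shared rise, with 1, 2 and 0 counts in the WT libraries, 247, 220 and 172 in E545K and 350, 377 and 376 in H1047R, and no fold is given against so few counts. It reached the level filter only through E545K. Of 31 tight and adherens junction genes, 8 were shared rises (25.8%, beside 19.4% of all genes) and 9 shared falls (29.0%, beside 20.8%). As a single group 7 and 8 passed. Another 9 moved in opposite directions, all of them higher in H1047R (4.45% of all genes did so). Besides CLDN1, claudin CLDN4 (1.21 in E545K and 1.52 in H1047R) and the transcription factor OVOL1 (2.15 in E545K and 2.13 in H1047R) rose, and EPCAM and CLDN7 fell (−0.72 and −0.29). CLDN8 was counted 4, 6 and 4 times in the WT libraries. Its E545K libraries held 34, 58 and 34 counts and its H1047R libraries 956, 1815 and 1434, and it was a shared rise that reached the level filter only through H1047R. The summed level of the 6 epithelial markers, with KRT8 the most abundant in WT, went from 2069 to 2154 CPM in WT to 1133 to 1148 in E545K and 1148 to 1201 in H1047R, while CDH1, the defining E-cadherin, moved in opposite directions (−0.44 in E545K and 0.18 in H1047R). Of 15 mammary lineage factors tested, 2 were shared rises (13.3%, beside 19.4% of all genes) and 4 shared falls (26.7%, beside 20.8%). SOX9 rose from 24.4 ± 0.923 CPM in WT to 108 ± 1.93 in E545K and 52.2 ± 3.0 in H1047R. The estrogen receptor ESR1 fell (−0.84 in E545K and −0.35 in H1047R), but other luminal markers did not follow it. Scaled to library totals, GATA3 stood at 19.59 to 23.62 CPM in WT, 18.1 to 19.64 in E545K and 42.03 to 44.73 in H1047R. FOXA1 stood at 3.071 to 4.268 CPM in WT, 9.284 to 10.46 in E545K and 3.123 to 3.755 in H1047R. TP63, a basal factor, stood at 192 CPM in WT, 161 in E545K and 143 in H1047R, a shared fall of −0.34 on the log2 scale.

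Interferon-stimulated and inflammatory genes rose more often than they fell. Of 38 interferon-response genes, 18 were shared rises and 4 shared falls (16 and 3 as a single group), with a median of 0.41. IFI44 went from 0.647 CPM in WT to 2.18 in E545K and 4.43 in H1047R, SAMD9L from 2.91 CPM in WT to 9.48 in E545K and 11.3 in H1047R and EPSTI1 from 1.14 CPM in WT to 2.85 in E545K and 7.06 in H1047R, the sensors IFIH1 and RIGI rose by 0.49 and 0.71. GBP1 fell from 54.0 CPM in WT to 36.5 in E545K and 18.3 in H1047R. Of 16 interleukins and chemokines tested, 8 were shared rises and IL1B was the 1 shared fall (7 and 0 as a single group). IL1B stood at 27.6, 29.3 and 30.2 CPM in the WT libraries, 9.99, 11.9 and 10.3 in E545K, and 1.06, 1.25 and 1.17 in H1047R. The H1047R libraries were lowest and the E545K libraries between, and the fall was not called as a single group (−2.31, edgeR adjusted p = 0.0652). CXCL8, a neutrophil attractant that reached the level filter only through E545K, rose by 2.16 in E545K and 1.14 in H1047R and TSLP, an epithelial cytokine, by 1.15 in E545K and 1.97 in H1047R. TNFAIP3, which ends NF-kB signalling, rose from 22.8 ± 0.631 CPM in WT to 102 ± 1.63 in E545K and 49.9 ± 4.72 in H1047R (pooled 1.65 ± 0.05) and the prostaglandin synthase PTGS2 by 2.58 in E545K and 0.66 in H1047R.

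Cholesterol synthesis genes were the list with the largest share of shared falls, 18 of 24 (75.0%, beside 20.8% of all genes), with 1 shared rise. The fall was far from equal. The median was −0.18 in E545K and −1.46 in H1047R, E545K was called lower for 9 of the 24 and H1047R for 23, and edgeR called H1047R below E545K for 23. HMGCS1, the enzyme that makes HMG-CoA, stood at 315, 312 and 311 CPM in the WT libraries, 226, 219 and 214 in E545K, and 50.3, 36.3 and 34.2 in H1047R. Other genes share 37.7% of its exon bases. The order was WT, E545K, H1047R with no overlap, and the pooled change was −1.74 ± 0.11 (edgeR adjusted p = 3.12e-06). The lanosterol-forming cyclase LSS went from 175 ± 1.64 CPM in WT to 140.0 ± 1.68 in E545K and 76.9 ± 3.14 in H1047R. As a single group 2 of the 18 passed, and HMGCS1 (edgeR adjusted p = 0.178) and LSS (0.0641) did not.

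Other metabolic groups split. Over all genes, 19.4% were shared rises and 20.8% shared falls. Of 31 ATF4-response genes, 10 were shared rises (32.3%) and 5 shared falls (16.1%), or 6 and 3 as a single group. In that list 6 genes were higher in E545K and lower in H1047R, and 1 was the reverse. The glutathione-degrading CHAC1 rose from 0.442 CPM in WT to 2.03 in E545K and 2.15 in H1047R, and PSAT1, of serine synthesis, from 22.6 ± 0.860 CPM in WT to 67.2 ± 0.914 in E545K and 51.9 ± 4.43 in H1047R. SLC7A5, the carrier of large neutral amino acids, fell from 5476 ± 44.2 CPM in WT to 3053 ± 41.9 in E545K and 1472 ± 108 in H1047R, and its partner SLC3A2 changed by −0.36 in E545K and −1.36 in H1047R. Of 27 antioxidant-response genes, 13 were shared falls (48.15%) and 4 shared rises (14.8%), or 8 and 3 as a single group. Ferritin light chain (FTL) went from 449.8 CPM in WT to 245 in E545K and 141 in H1047R. ALDH3A1 went from 149 CPM in WT to 94.2 in E545K and 73.6 in H1047R, and heme oxygenase HMOX1 changed by −0.84. Of 31 glycolysis and hypoxia genes, 10 were shared falls (32.3%) and 7 shared rises (22.6%), or 4 and 5 as a single group. The glycolytic enzymes GAPDH (−0.06 in E545K and −0.45 in H1047R), ENO1 (−0.06 in E545K and −0.57 in H1047R) and PKM (−0.12 in E545K and −0.35 in H1047R) were shared falls, the first pair not called in E545K alone, and hexokinase HK2 (0.21) and the lipase inhibitor ANGPTL4 (2.04) rose.

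YAP-TEAD, TGF-beta, Notch and ephrin genes held more shared falls than rises in the main fit, the ephrin genes not as a single group. Shared falls made up 41.7%, 40.9%, 46.7% and 43.75% of these lists in turn, beside 20.8% of all genes. Shared rises made up 4.17%, 27.3%, 20.0% and 31.25%, beside 19.4%. Of 24 YAP-TEAD targets, 10 fell and 1 rose among shared genes (7 and 1 as a single group). The WNT inhibitor DKK1, which YAP also induces, fell from 118 ± 2.82 CPM in WT to 39.1 ± 1.74 in E545K and 17.1 ± 1.97 in H1047R (pooled −2.18 ± 0.06, edgeR adjusted p = 4.22e-11). IGFBP3 was the rise, with 0.98 in E545K and 1.54 in H1047R, and the classical target CCN2 moved in opposite directions (0.48 in E545K and −1.58 in H1047R). Of 22 TGF-beta and BMP genes, 9 were shared falls and 6 shared rises (8 and 6 as a single group), the falls with TGFB1 (−0.25), SMAD3 (−0.44) and the latency protein LTBP3, from 114 CPM in WT to 53.4 in E545K and 44.5 in H1047R, while LTBP2 rose from 30.6 CPM in WT to 61.7 in E545K and 71.1 in H1047R. Of 15 Notch genes, 7 fell and 3 rose (7 and 1 as a single group, 5 rises without WT replicate 2), the ligands DLL1 (−2.19 in E545K and −1.90 in H1047R) and JAG2 (−0.32 in E545K and −0.38 in H1047R) among the falls, DLL1 having reached the level filter only through WT, and NOTCH1 itself was a shared rise not called in E545K alone (0.10 in E545K and 0.66 in H1047R). Of 16 ephrins and their receptors, 7 fell and 5 rose (5 and 5 as a single group), with the receptors EPHA3 up from 0.313 CPM in WT to 1.49 in E545K and 5.56 in H1047R and EPHA4 up from 5.39 CPM in WT to 9.82 in E545K and 27.3 in H1047R. The bar chart of shared members per list sets all of these beside the share over all genes.

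**Figure D5:**
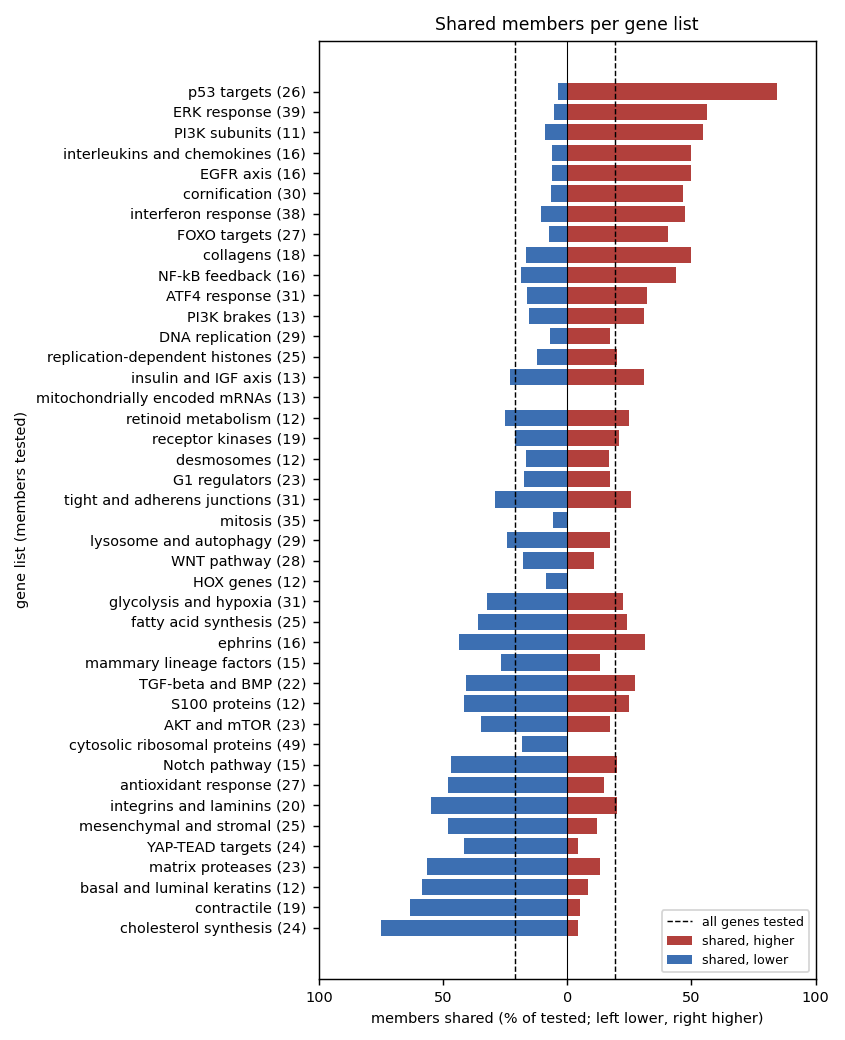
Percent of tested members of each list that were shared rises (right bars) or shared falls (left bars) in both knock-in lines (x axis), for lists with at least 10 genes tested, with the number tested in brackets. Dashed lines give 19.4% and 20.8% over all genes. p53 targets reach 84.6% on the right and cholesterol synthesis 75.0% on the left.

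For some shared changes the difference between the lines was not called, which does not show that they were the same. Among shared genes of at least 2-fold, edgeR made no call between the lines for 92 of 395 rises and 56 of 191 falls. Beside CCND1 and CST6, these held 4 UGT1A genes that glucuronidate lipids and drugs, which share their last exons and are counted from largely the same reads (UGT1A9 stood at 8.02 CPM in WT, 20.9 in E545K and 20.8 in H1047R). The difference between lines was 0.01 ± 0.06 on the log2 scale for CCND1 and −0.01 ± 0.08 for CST6.

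The lines also opposed each other. By edgeR, 1563 genes (9.29%) were called in both lines with opposite sign and without overlap, 814 higher in E545K and lower in H1047R (4.84%) and 749 the reverse (4.45%). With library totals as the only scaling the split was 1741 and 316, since the TMM factors were 1.05 to 1.06 in E545K and 0.934 to 0.958 in H1047R. The pooled comparison called 653 of them. The muscle calcium channel RYR1 stood at 16.9, 17.7 and 17.3 CPM in the WT libraries, 43.2, 42.2 and 42.4 in E545K, and 0.0427, 0.0596 and 0.0809 in H1047R. E545K lay above WT and H1047R far below it, and the pooled value of −3.40 describes neither line. The anosmin gene ANOS1 was the reverse, near its floor in E545K, at 5.61 CPM in WT, 0.0498 in E545K and 16.5 in H1047R. Complement C3, which stood at 229.6 ± 2.65 CPM in WT, 108 ± 2.32 in E545K and 774 ± 28.9 in H1047R, had a pooled change of 0.33 made of −1.09 in E545K and 1.75 in H1047R.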

How the data were processed

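RNA-seq of 9 MCF-10A libraries, 3 for each of 3 genotypes, was used as raw gene counts. The authors' deposited count tables were made with featureCounts 2.0.0 on hg38 with GENCODE v32 per the file headers, unstranded, over exons, and with reads that overlap several genes counted for each. WT and E545K came in 1 table and H1047R in another, so table and genotype cannot be told apart for H1047R. The header's command sets no paired mode, so the values count reads and not fragments. STAR, SAMtools 1.5, cutadapt, Trim Galore 0.4.0 and FastQC appear in the submitters' processing notes.

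The tables were joined by gene identifier (60609 genes), and genes with at least 1 CPM in at least 3 libraries were kept (16830). Counts were fitted in R 4.3.3 with edgeR 4.0.16 (TMM scaling, robust quasi-likelihood, 1 mean per genotype), with Benjamini-Hochberg adjustment over all 16830 genes and a threshold of 0.05. The pooled contrast was the mean of both knock-ins minus WT, each weighted equally. Errors of log2 fold changes are standard errors from that fit, and levels are CPM with TMM scaling. A shared gene had a pooled call and all 6 knock-in libraries beyond all 3 WT libraries. Named genes were, ranked by the smaller absolute change of either line, the 12 largest shared rises and falls with a symbol, a mean of at least 10 CPM and under 50% of exon bases shared, up to 3 shared members per list and 1 in the other direction, the 5 largest opposite genes on each side, and the 6 shared genes of at least 2-fold whose difference between lines was nearest 0. Further list members were chosen after their values were seen, as were the members and lists themselves, which were picked with earlier results of these data known. Same-numbered replicates did not deviate together (correlations of −0.053 to 0.065), so the numbers were not treated as pairs. On simulated counts, the pooled test was checked before use. Alternatives covered scaling, filters, DESeq2 1.42.0, limma 3.58.1 (voom), pooling and leaving out each library. Promoter windows came from RefSeq (GRCh38.p14). Some results are not reported here.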

Additional observations from a re-analysis of the deposited data

Results flagged for a closer look

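The 2 knock-in lines differed in direction for many genes, by the edgeR test of H1047R against E545K with each line also called against WT. There were 814 genes higher in E545K and lower in H1047R than WT, and 749 with the reverse pattern. Genes of the first kind, named by H1047R minus E545K on the log2 scale, were the junction protein JAM3 (−3.39 ± 0.08), the calcium channel RYR1 (−9.40 ± 0.09), the matrix protein THBS1 (−4.02 ± 0.08), the prostaglandin receptor PTGER4 (−2.57 ± 0.12) and the glucosyltransferase POGLUT3 (−2.95 ± 0.10). JAM3 stood at 7.68 ± 0.731 CPM in WT, 23.2 ± 0.703 in E545K and 2.22 ± 0.216 in H1047R, and THBS1 at 99.7 ± 1.45 CPM in WT, 233 ± 2.21 in E545K and 14.4 ± 1.83 in H1047R.

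Genes of the second kind were the phospholipase PLA2G2A (5.14 ± 0.11), ANOS1 (8.32 ± 0.20), the chemokine CXCL14 (4.03 ± 0.09), OLFML3 (5.21 ± 0.20) and complement C3 (2.84 ± 0.04). PLA2G2A and OLFML3 reached the level filter only through H1047R. CXCL14 stood at 15.4 ± 0.517 CPM in WT, 5.74 ± 0.340 in E545K and 93.8 ± 11.1 in H1047R, and PLA2G2A at 0.938 ± 0.0313 CPM in WT, 0.311 ± 0.0303 in E545K and 11.1 ± 0.856 in H1047R. H1047R libraries were in a separate table with a lower protein-coding share of counts, and the part of either in these differences was not tested.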

How the results depend on the processing

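No gene tested by name changed direction under any alternative run, while list medians near 0, such as that of AKT and mTOR genes, could change sign. With library totals as the only scaling the opposite genes became 1741 higher in E545K and 316 higher in H1047R, and 5729 of the 6776 shared genes remained. Shared changes of at least 2-fold numbered 765 rises and 410 falls under filterByExpr, 801 and 610 with no low-count filter, and 192 and 101 at 5 CPM or more. Fitting the knock-ins as 1 group left 2541 rises and 2546 falls in the pooled comparison. Fitting each line with WT alone, chosen after seeing the data, gave no pooled test. Both lines were then called higher for 3119 genes and lower for 3348, beside 5870 of the pooled calls in the main fit. DESeq2 kept 6762 of the shared genes and limma-voom 6773. Leaving out each library in turn gave 4930 to 5895 pooled rises and 4922 to 5857 falls, 3324 to 3491 shared rises and 3494 to 3647 shared falls, 340 to 405 and 134 to 193 of at least 2-fold, and opposite genes from 637 to 1086 and from 590 to 966. H1047R lay further from WT for 3368 to 3839 shared genes and E545K for 810 to 1120. With a library left out, fewer libraries had to lie apart, so the shared rule was easier to meet. Shared counts of those fits, also within lists, are therefore not like for like with the main fit. Of the 6776 shared genes, 6490 to 6676 remained. With the replicate number as a block, 5488 genes rose and 5488 fell, 6743 of the 6776 shared genes remained, and the opposite genes numbered 780 and 741, so pairing by number changed no count by more than 1.5 times. Depth limits WT and E545K near the floor more than H1047R, whose libraries were the deepest.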

Other observations

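Other lists, described by counts only, were mostly mixed, beside 19.4% shared rises and 20.8% shared falls over all genes. Desmosome genes held 2 shared rises and 2 shared falls of 12, and 6 were called higher and 4 lower. DSP rose in both lines (0.89 as a single group, edgeR adjusted p = 0.0437). JUP fell, at −0.47 in E545K and −0.60 in H1047R, and so did PPL, at −0.58 in E545K and −0.08 in H1047R. PPL was not called as a single group (edgeR adjusted p = 0.143). S100 proteins held 3 and 5 of 12, with S100P at 1.43 in E545K and 4.36 in H1047R and S100A6 at −0.39 in E545K and −0.52 in H1047R. Clade B serpins held 4 rises and 1 fall of 8, with SERPINB3, which reached the level filter only through WT, at −2.08 in E545K and −0.93 in H1047R. Fatty acid synthesis genes held 6 and 9 of 25, with the glycerol acyltransferase GPAM at 0.43 in E545K and 0.60 in H1047R and FADS3 at −0.44 in E545K and −0.93 in H1047R. Metallothioneins held 1 and 2 of 4, lysosome genes 5 and 7 of 29, retinoid genes 3 and 3 of 12, WNT genes 3 and 5 of 28, receptor kinases and ligands 4 and 4 of 19, and replication-dependent histones 5 and 3 of 25 (9 rises without WT replicate 1, 5 falls without WT replicate 2). NF-kB feedback genes held 7 and 3 of 16. HOX genes held 1 fall of 12, HOXC9 (−0.44 in E545K and −0.35 in H1047R). Cytosolic ribosomal protein genes held 0 rises and 9 falls of 49, all small (RPL37 −0.44 in E545K and −0.44 in H1047R), 16 falls with library totals as scaling and 24 without H1047R replicate 1. Mitochondrially encoded mRNAs held 0 of 13, where edgeR called 2 pooled rises. MUC1, a transmembrane mucin, rose from 63.3 ± 3.49 CPM in WT to 75.5 ± 2.12 in E545K and 190.1 ± 3.05 in H1047R, a call lost as a single group (1.07, edgeR adjusted p = 0.0759).

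Marker genes of other cell types were few. Endothelial markers summed to 8.36 to 10.2 CPM in WT, up to 12.9 in E545K and 20.3 to 23.8 in H1047R, almost all of it KDR (0.32 in E545K and 1.41 in H1047R, not called as a single group, edgeR adjusted p = 0.0607). Immune markers summed to 49.1 to 50.2, 59.9 to 62.4 and 77.9 to 89.6 CPM, most of it CSF1R (0.45 in E545K and 1.26 in H1047R), while CD68 changed by −0.62 in E545K and −0.98 in H1047R and CD14, at 4.57 to 5.49 CPM in WT, 4.89 to 5.54 in E545K and 2.17 to 2.64 in H1047R, was called lower. Adipocyte markers summed to less than 1.74 CPM in every library.

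Some stretches of the genome held many shared genes, counted in windows of 10 Mb with at least 20 genes tested on hg38 and chosen after the values were seen. Shared falls, 20.8% of all genes, made up 72.1% of 43 genes in the first window of chromosome 5 (median pooled change −0.38), 66.7% of 24 in the next (−0.35), and 53.8% of 39 and 53.6% of 28 between 30 and 50 Mb. OTULINL (−2.10), ANKRD33B (−1.46), TPPP (−1.0) and TRIO (−0.64) lie in the first pair. They also made up 54.5% of 22 genes between 90 and 100 Mb of chromosome 13, 65.0% of 20 in the next window and 40.6% of 32 in the one after, which holds GAS6 (−1.01) and RASA3 (−0.87), and 56.7% of 30 from 50 Mb of chromosome 22.

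Shared rises, 19.4% of all genes, made up 61.1% of 36 genes between 150 and 160 Mb of chromosome 4, 53.6% of 28 between 220 and 230 Mb of chromosome 2, and 55.8% of 120 between 140 and 150 Mb of chromosome 5, where the protocadherins lie. The protocadherin-alpha genes share exons whose reads were counted for each gene, so the genes of that window are not all separate counts. On chromosome 7 shared rises made up 52.4% of 82 in the first window, 52.2% of 46 between 30 and 40 Mb and 54.5% of 55 in the next. These chromosome 7 windows had medians of 0.70 to 0.84 in E545K and 0.16 to 0.17 in H1047R, and INHBA (−3.34) and ACTB (−1.08) there were shared falls. Between 20 and 30 Mb, 29.7% of 64 genes were shared rises, and the medians were 0.64 in E545K and −0.15 in H1047R. DNA copy number was not measured in the files used here.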
